A study of Mus musculus with 6 samples.

Results

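The unfolded protein response was followed through 10 genes for endoplasmic reticulum (ER) stress, chosen by name: Hspa5, Hsp90b1, Pdia4, Pdia6, Dnajb9, Sdf2l1, Herpud1, Xbp1, Atf4 and Ddit3. All 10 were among the 8390 genes of the deposited expression table, and all 10 were tested. The table covers whole-liver RNA of 6 C57BL/6 mice, an inbred laboratory strain, profiled by RNA sequencing. In the LV group, 3 mice had been given 3e8 transducing units of a lentiviral vector into a vein, and the liver was taken 4 h later. A lentiviral vector is a gene transfer particle derived from a retrovirus. The other 3 mice were untreated. A group injected without vector is not analysed here, so effects of the vector and of the injection cannot be told apart. The labels used here do not state the age or sex of the mice or the cargo of the vector. Each library is taken as 1 mouse from the titles, which call them replicates and give no more. If they are not separate animals, the p-values describe only the scatter of these 6 libraries. The study concerns the innate response of liver to lentiviral particles.

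The ER folds secreted and membrane proteins, and liver cells that export plasma proteins hold much of it. When unfolded proteins build up, 3 sensors in the ER membrane respond. The kinase and ribonuclease IRE1 removes a short intron from Xbp1 mRNA, the kinase PERK slows translation and so raises Atf4 protein, and Atf6 is cut free to enter the nucleus. The resulting factors raise ER chaperones and degradation genes, and under lasting stress Ddit3 (CHOP). Gene-level values cannot separate spliced from unspliced Xbp1 mRNA, and they say nothing of Atf4 translation or of the cutting of Atf6.

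Promoter sequences are shown because Atf6 and spliced Xbp1 are known to act on ER chaperone genes through short elements there. The ER stress response element (ERSE) was searched as CCAAT and CCACG separated by 9 bases, and the related ERSE-II as ATTGG and CCACG separated by 1 base, on both strands. The windows run from 250 bases before to 50 bases after each RefSeq gene start in assembly GRCm38.p6, and all 10 genes had 1 window each. In the sites below, capitals mark the fixed letters of the motif and lower case its spacer, each read 5′ to 3′ on the strand of the motif.
Hspa5, chr2:34772025-34772043, gene on the + strand: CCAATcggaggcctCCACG
Hsp90b1, chr10:86705638-86705656, gene on the - strand: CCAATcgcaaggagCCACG
Hsp90b1, chr10:86705533-86705551, on the strand opposite to the gene: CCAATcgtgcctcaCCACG
Pdia6, chr12:17266491-17266509, gene on the + strand: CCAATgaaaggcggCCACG
Herpud1, chr8:94386377-94386387, gene on the + strand: ATTGGgCCACG
The site of Hspa5 lies 65 to 47 bases before the start and that of Herpud1 52 to 42 bases before it. ERSE was found in 39 of 32851 windows (0.119%) and ERSE-II in 12 (0.0365%). Of the 10 genes, 3 held ERSE and Herpud1 held ERSE-II. Both elements are known from genes of the ER stress response, so their presence in these 10 could be foreseen. It is no independent finding of enrichment. The letters TGACGTGG, bound by Xbp1, were in 0.676% of windows, and TGATGNAAT, an Atf4 composite site, in 0.965%. Neither was in a window of the 10 genes. A match is a description of the letters and not a measured binding site.

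The stretches of 120 bases before the start are given for Hspa5, the central chaperone, and for Xbp1 and Herpud1, which had the highest and the lowest fold change of the 10, with the same letters in capitals.
Hspa5, chr2:34771970-34772089, + strand: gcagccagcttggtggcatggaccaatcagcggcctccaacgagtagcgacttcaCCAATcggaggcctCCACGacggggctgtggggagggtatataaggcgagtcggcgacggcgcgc
Herpud1, chr8:94386309-94386428, + strand: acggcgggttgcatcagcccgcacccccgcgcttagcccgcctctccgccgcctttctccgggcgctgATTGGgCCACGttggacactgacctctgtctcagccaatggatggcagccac
Xbp1, chr11:5520521-5520640, + strand: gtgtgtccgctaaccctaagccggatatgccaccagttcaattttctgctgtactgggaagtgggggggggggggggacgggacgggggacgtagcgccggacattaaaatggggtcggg
In the Xbp1 stretch none of the 4 motifs was present as spelled.

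The deposited values are whole numbers on the authors' own scale, and the library sums ran from 497295 to 526009. The sums do not count reads, and sequencing depth cannot be read from them. Livers labelled LV carried the mark of the treatment: all 12 interferon-stimulated genes checked rose, with a median log2 fold change of 5.52. Their summed value was 6859, 5283 and 3922 in LV replicates 1, 2 and 3 and at most 133 in an untreated liver. Albumin (Alb), the main hepatocyte product, lay between 41700 and 69728 in the 6 livers. Of 10 measured hepatocyte markers 0 were called by limma and 2 had an unadjusted p under 0.05, both higher. Fgb had 7251, 6098 and 5440 in LV against 3656, 3236 and 3701 in untreated livers, and Hnf4a 227, 218 and 216 against 189, 193 and 184. The fold change was above 0 for 6 of the 10 and below 0 for 4. LV replicate 3 and untreated replicate 2 stood apart from the rest in male-biased genes other than Selenbp2: Elovl3 had 169 and 159 there and at most 4 elsewhere. Selenbp2 had 423 in LV replicate 3 but 116 in untreated replicate 2, against 108 to 184 in the rest. Of 12 measured Kupffer cell markers 0 were called by limma. An unadjusted p under 0.05 was found for 3 (1 higher and 2 lower), and for 19.5% of all tested genes. The fold change was below 0 for 9 of the 12, and for 58% of all tested genes. Their summed value was 222 to 420 in LV and 304 to 439 in untreated livers. Of 12 sinusoidal endothelial markers 0 were called by limma and 2 (1 higher and 1 lower) had an unadjusted p under 0.05. The fold change of 9 endothelial markers was below 0, and the sums were 117 to 208 in LV and 214 to 239 in untreated livers. None of 14 neutrophil markers was listed in the table, and of 17 lymphocyte and plasma cell markers only Sdc1 was. In bulk RNA, fewer cells of a type and less RNA per cell cannot be told apart, and the part of other cell types in the values below was not tested.

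At 4 h after the vector none of the 10 ER stress genes passed the test, and their fold changes had no common sign, with 5 above 0 and 5 below. Of all tested genes, 38.3% had a fold change above 0 and 58% below. Xbp1 lay above the untreated livers, Herpud1 and Ddit3 lay below them, and the groups overlapped for the other 7. The median log2 fold change over the 10 was 0.01, against -0.07 over all tested genes. With limma, a linear model across all genes with Benjamini-Hochberg adjustment, 0 of the 10 had an adjusted p under 0.05, where 4.63% of 8386 tested genes did (3.76% higher and 0.87% lower). At an unadjusted p under 0.05 there were 3 of the 10, and 19.5% of all tested genes. Of the 3, Xbp1 was higher, where 9.21% of tested genes were, and Herpud1 and Ddit3 were lower, where 10.3% were. The groups did not overlap for these same 3 genes, and for 19.7% of all tested genes (8.65% with LV above and 11% with LV below). The share among the 10 is therefore read as a description of 3 genes. Values are given in the deposited unit, and fold changes are on the log2(value + 1) scale, LV mean minus untreated mean, which understates differences of low genes.

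**Figure D1:**
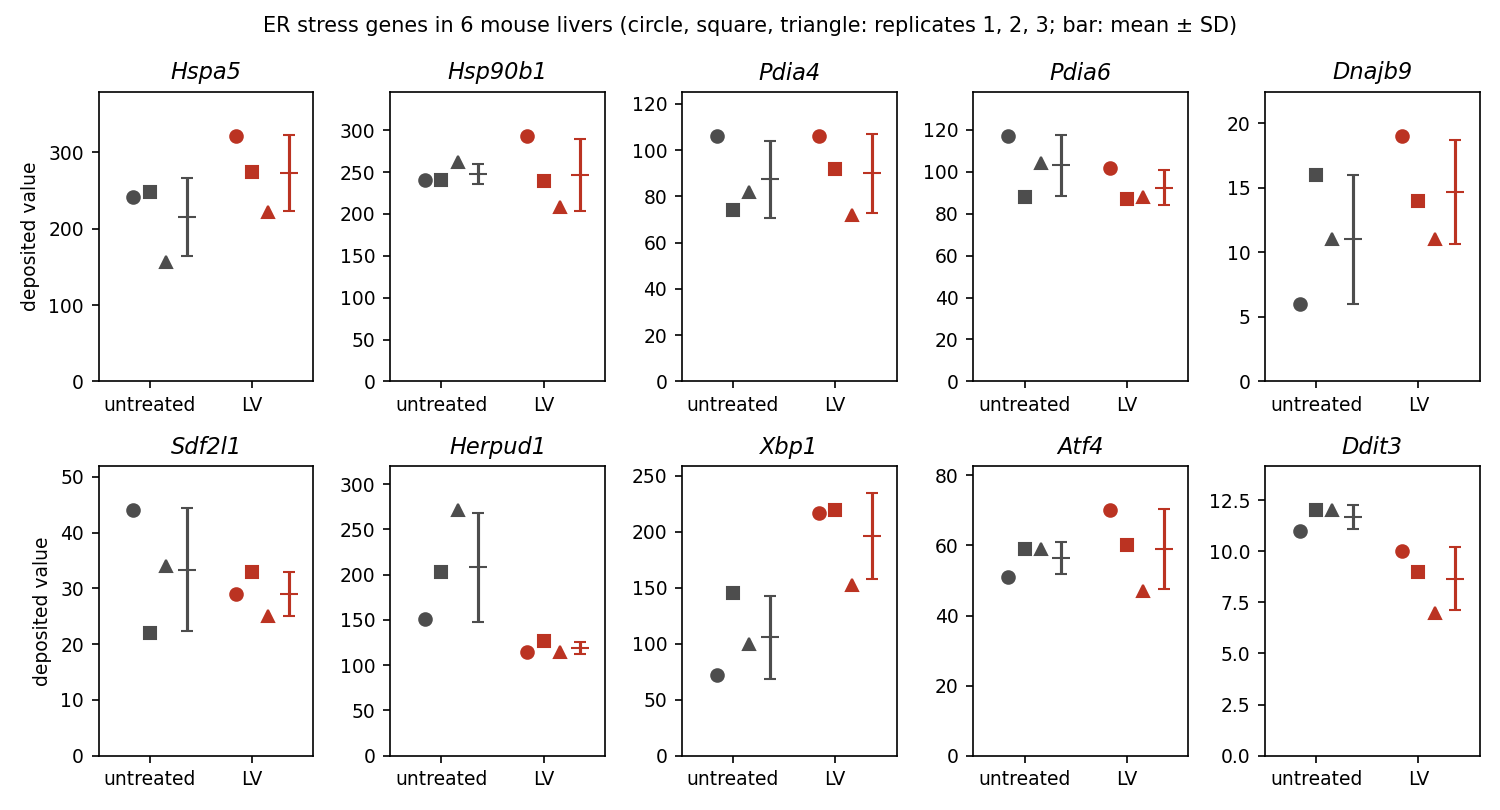
Deposited value (vertical axis, authors' unit, from 0) of each ER stress gene in the 3 untreated (grey) and 3 LV livers (red), one point per library, with mean ± SD beside them. Xbp1 is at 152 to 219 in LV against 72 to 145, Herpud1 at 115 to 127 against 151 to 271, and the groups of 7 genes overlap.

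Xbp1 encodes the transcription factor downstream of IRE1. It had 217, 219 and 152 in LV replicates 1, 2 and 3 and 72, 145 and 100 in untreated replicates 1, 2 and 3. Every LV liver lay above every untreated one, but LV replicate 3 and untreated replicate 2 were only 152 against 145. The means were 196 ± 38.1 and 106 ± 36.8 (SD, n = 3). Its log2 fold change was 0.92 ± 0.29 (SE), a 1.90-fold difference with a 95% interval of 1.14 to 3.16, and the adjusted p in limma was 0.175. Its fold change lay at the 95.8th percentile of tested genes. Without the 2 libraries that stood apart, the values were 217 and 219 against 72 and 100, and the log2 fold change was 1.35 (limma adjusted p = 0.104). Leaving out untreated replicate 1, which had 72, lowered it to 0.68 (limma adjusted p = 0.315).

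Dnajb9 encodes ERdj4, a J-domain partner of Hspa5 and a known target of spliced Xbp1. Its values were 19, 14 and 11 in LV against 6, 16 and 11 in untreated livers. The groups overlapped, with 11 found in both. Untreated replicate 1 was the lowest library and untreated replicate 2 the highest untreated one for both Dnajb9 and Xbp1. The log2 fold change of Dnajb9 was 0.44 ± 0.37 (limma adjusted p = 0.564), with an interval from 0.712-fold to 2.60-fold. Dropping untreated replicate 1 gave 0.10, and dropping both LV replicate 3 and untreated replicate 2 gave 0.92.

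Herpud1 encodes an ER membrane protein that helps assemble the degradation machinery, and it is one of the genes that ER stress raises most readily. Its values were 115, 127 and 115 in LV against 151, 203 and 271 in untreated livers. The LV livers were close together at 119 ± 6.93, whereas the untreated ones spread widely at 208 ± 60.2 (SD, n = 3). The direction was opposite to that of Xbp1: all 3 LV livers lay below all untreated ones. The log2 fold change was -0.76 ± 0.22, or 0.589 of the untreated level with an interval of 0.402 to 0.863, and the limma adjusted p was 0.142. It lay at the 2.68th percentile of tested genes. Leaving out untreated replicate 1, the lowest of the untreated livers, gave -0.97 (limma adjusted p = 0.0808), the smallest adjusted p among the alternatives for this gene. Leaving out untreated replicate 3, the highest of them, gave -0.55 (limma adjusted p = 0.216).

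**Figure D2:**
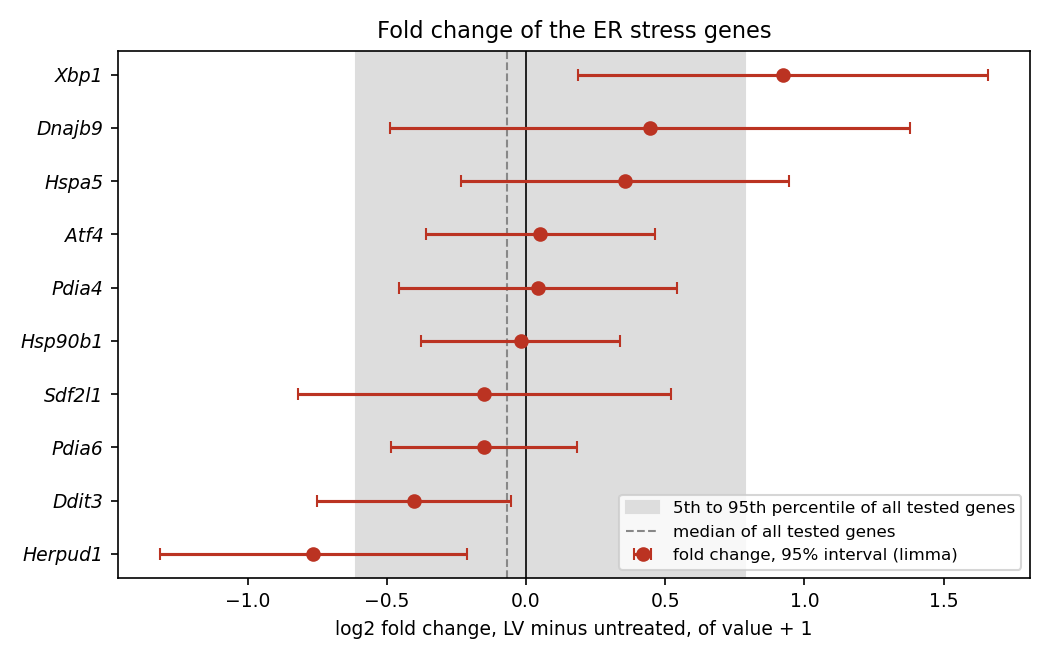
Log2 fold change of value + 1 (horizontal axis) of each ER stress gene with its 95% interval from limma. Grey marks the 5th to 95th percentile of all tested genes (-0.61 to 0.79) and the dashed line their median (-0.07). Xbp1 at 0.92 and Herpud1 at -0.76 lie outside the band, and the intervals of 7 genes include 0.

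Hspa5, also called BiP or Grp78, is the main Hsp70 chaperone of the ER lumen and also keeps the stress sensors inactive. LV livers gave 321, 274 and 222, and untreated livers 241, 248 and 156. LV replicates 1 and 2 were the highest libraries, while LV replicate 3 lay below 2 of the untreated livers. For Hspa5 the log2 fold change was 0.35 ± 0.24, a 1.28-fold difference with an interval from 0.850-fold to 1.92-fold (limma adjusted p = 0.458). Leaving out untreated replicate 3, which had 156, lowered it to 0.14 (limma adjusted p = 0.72). Leaving out LV replicate 3 and untreated replicate 2 raised it to 0.61 (limma adjusted p = 0.355), and leaving out LV replicate 1 gave 0.23.

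Hsp90b1 (Grp94), the Hsp90 of the ER, had 293, 240 and 208 in LV against 241, 241 and 262 in untreated livers. LV livers held both the highest and the lowest value. The log2 fold change was -0.02 ± 0.14 (limma adjusted p = 0.983), and 0.034 with scaling by the median of ratios. Its interval ran from 0.771-fold to 1.26-fold. The promoter of this gene held 2 ERSE sites, as shown above.

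Pdia4, a protein disulphide isomerase, had 106, 92 and 72 in LV against 106, 74 and 82 in untreated livers. Pdia6, another isomerase and a partner of Hspa5, had 102, 87 and 88 against 117, 88 and 104. For Pdia4 both groups covered nearly the same range, and for Pdia6 they overlapped, with 2 untreated livers above all LV livers. The log2 fold changes were 0.04 ± 0.20 and -0.15 ± 0.13 (limma adjusted p = 0.943 and 0.58), with intervals from 0.728-fold to 1.45-fold and from 0.715-fold to 1.14-fold.

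Sdf2l1, which works with Hspa5 and its J-domain partners to keep clients soluble, had 29, 33 and 25 in LV against 44, 22 and 34 in untreated livers. The untreated livers held both the highest and the lowest value. The log2 fold change was -0.15 ± 0.27 (limma adjusted p = 0.79). The 2.60-fold upper bound of Dnajb9 aside, no interval of these folding genes reached a 2-fold increase, and that of Hspa5 came closest at 1.92-fold.

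Atf4, the transcription factor of the PERK branch, had 70, 60 and 47 in LV against 51, 59 and 59 in untreated livers. LV replicate 1 was the highest library and LV replicate 3 the lowest. For Atf4 the log2 fold change was 0.05 ± 0.16 (limma adjusted p = 0.897), with an interval from 0.779-fold to 1.38-fold.

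Ddit3 (CHOP), a factor that promotes cell death under lasting stress and a target of Atf4, had 10, 9 and 7 in LV against 11, 12 and 12 in untreated livers. All LV livers lay below all untreated ones, though LV replicate 1 and untreated replicate 1 differed by 1 unit, the step to which the authors rounded. For Ddit3 the log2 fold change was -0.40 ± 0.14 (limma adjusted p = 0.199), or 0.757 of the untreated level with an interval of 0.595 to 0.963. It was -0.25 without LV replicate 3 and untreated replicate 2, a smaller difference by over 1.5 times.

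**Figure D3:**
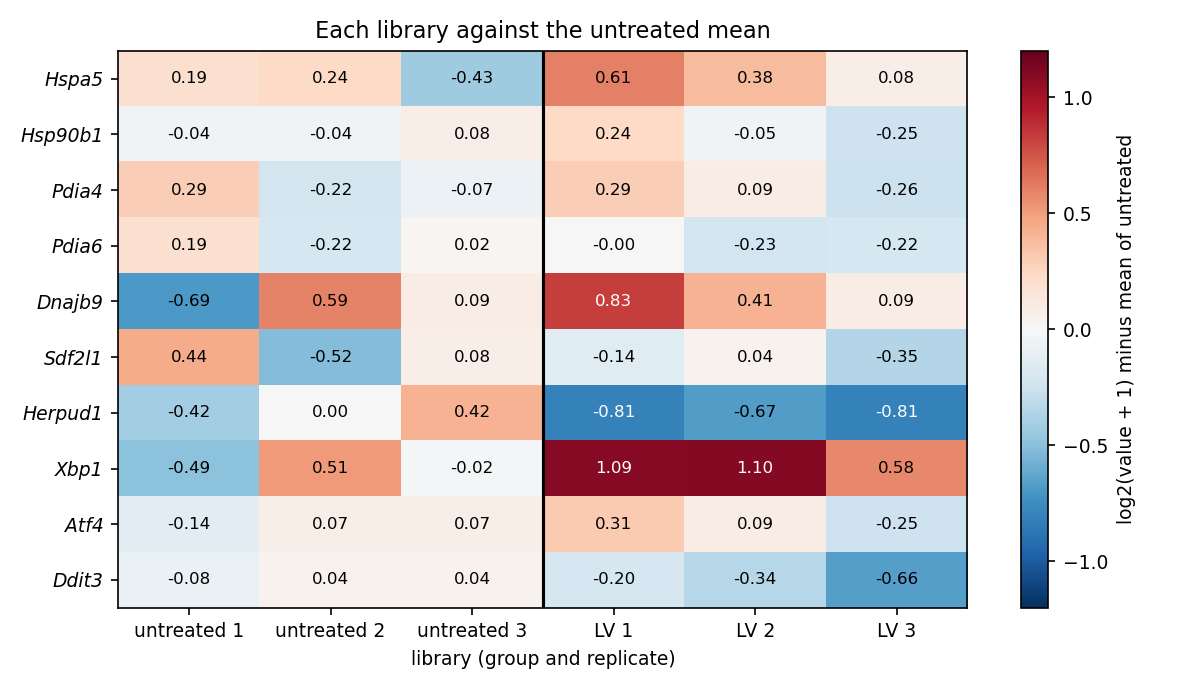
Log2(value + 1) of each ER stress gene (rows) in each library (columns) minus the mean of the untreated livers, red above and blue below. Xbp1 is at 1.09, 1.10 and 0.58 in LV replicates 1, 2 and 3 and Herpud1 at -0.81, -0.67 and -0.81. Hspa5 at 0.61, 0.38 and 0.08 and Dnajb9 at 0.83, 0.41 and 0.09 are above 0 in all LV livers, as Ddit3 is below. Untreated livers are also above 0 for Hspa5 (0.19 and 0.24 in replicates 1 and 2) and Dnajb9 (0.59 and 0.09 in replicates 2 and 3).

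The LV livers differed among themselves across the 10 genes. LV replicate 3 alone had the lowest LV value for 8 of them, and it was alone lowest for 28.7% of all tested genes. LV replicate 1 alone had the highest LV value for 7, and the share of all tested genes for which it was alone highest was not computed. The median deviation of the 10 genes from the untreated mean was 0.27, 0.06 and -0.25 in LV replicates 1, 2 and 3, against -0.06, -0.07 and -0.04 for all tested genes. The spread among LV livers was thus wider than the difference between the group medians. LV replicate 3 also had the lowest summed interferon-stimulated value given above and was 1 of the 2 libraries apart in male-biased genes. The part of either in these values was not tested.

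Ratios of 2 genes in the same library do not depend on how libraries were scaled. These ratios were chosen after the values were seen and are given without a test. Xbp1 over Herpud1 was 1.89, 1.72 and 1.32 in LV against 0.477, 0.714 and 0.369 in untreated livers. The groups of this ratio had to separate, because every LV liver lay above every untreated one for Xbp1 and below for Herpud1. Herpud1 over Hspa5 was 0.358, 0.463 and 0.518 in LV against 0.627, 0.819 and 1.74 in untreated livers. Ddit3 over Atf4 was 0.143, 0.15 and 0.149 in LV against 0.216, 0.203 and 0.203 in untreated livers. These ratios show unequal differences between genes and not which gene of a pair moved.

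**Figure D4:**
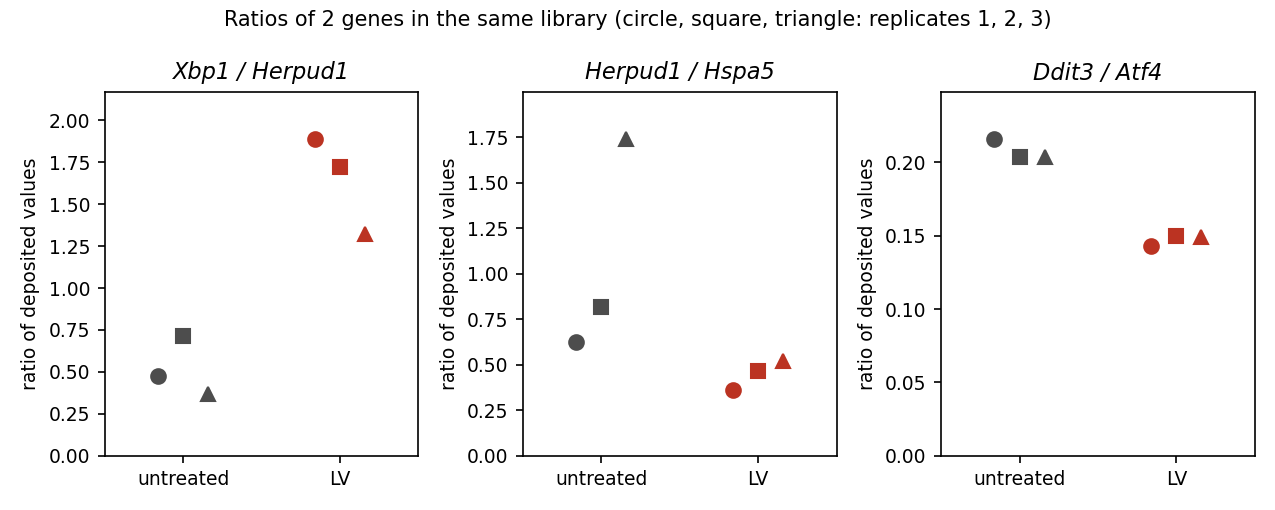
Ratio of the deposited values of 2 genes in the same library (vertical axis, from 0), one point per library, untreated in grey and LV in red. Xbp1 over Herpud1 is 1.32 to 1.89 in LV against 0.369 to 0.714, and Ddit3 over Atf4 is 0.143 to 0.15 against 0.203 to 0.216.

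Few other genes of the stress response passed the test. Of 135 further measured genes for sensing, folding, degradation, translocation and Atf4 targets, 2 rose by limma and 133 did not pass, with a median log2 fold change of 0.03. Over all tested genes 3.76% were called higher and 0.87% lower. The groups did not overlap for 16 of them (11.9%), where 19.7% of all tested genes did not overlap. Of 10 measured sensors and ER-anchored factors, an unadjusted p under 0.05 was found for 2 higher and 1 lower, and for 19.5% of all tested genes. The groups did not overlap for 4 of the 10 (40%): Creb3l2, Creb3, Creb3l3 and D10Wsu52e (Rtcb), which had 49, 41 and 40 against 39, 36 and 36. Creb3l2, a factor released from the membrane like Atf6, rose from 7, 8 and 6 to 13, 16 and 13 (log2 fold change 0.91 ± 0.14, limma adjusted p = 0.0279). That call was lost when any 1 library other than untreated replicate 2 was left out, with adjusted p up to 0.111, and without LV replicate 3 and untreated replicate 2 together (0.0959). Creb3 had 30, 29 and 26 against 23, 21 and 21 (limma adjusted p = 0.0941). Creb3l3 (CREBH), a liver-enriched factor of the same family that acts on acute-phase and lipid genes, had 78, 116 and 122 against 140, 140 and 192. All its LV values lay below the untreated ones, but the limma adjusted p was 0.242.

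Among 19 measured genes of the PERK, Atf4 and Ddit3 branch, 1 rose and 18 did not pass, where 3.76% of all tested genes were called higher. The gene was Wars, the tryptophanyl-tRNA synthetase, which is also interferon-inducible, with 28, 35 and 24 in LV against 16, 15 and 13 in untreated livers (log2 fold change 0.93 ± 0.16, limma adjusted p = 0.0414). Leaving out any 1 library other than LV replicate 3 gave adjusted p between 0.111 and 0.147, and dropping LV replicate 3 with untreated replicate 2 gave 0.12. Aars, another tRNA synthetase, had 64, 63 and 61 against 44, 47 and 34 (limma adjusted p = 0.0822, and 0.0303 with scaling by the median of ratios). Trib3, an Atf4 and Ddit3 target that feeds back on both, had 3, 6 and 7 against 12, 9 and 18, with all LV values below (limma adjusted p = 0.161). Shmt2, a mitochondrial enzyme of serine use, had 70, 78 and 95 against 110, 108 and 106 (limma adjusted p = 0.15, and 0.0454 without LV replicate 3). The branch thus showed values on both sides, with 9 fold changes above 0 and 10 below, where 38.3% and 58% of all tested genes were.

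In ER-associated degradation 0 of 31 measured genes passed in limma, and 2 had an unadjusted p under 0.05, where 19.5% of all tested genes did. Syvn1 (Hrd1), the ubiquitin ligase of this route and a known Xbp1 target, had 68, 49 and 36 in LV against 27, 31 and 18 in untreated livers. Its groups did not overlap, and its log2 fold change of 0.97 ± 0.30 was close to that of Xbp1 (limma adjusted p = 0.164). Edem1, a lectin that sends glycoproteins to degradation, had 42, 35 and 31 against 30, 33 and 21 (limma adjusted p = 0.376). Rnf139 had 12, 11 and 12 against 8, 10 and 8 (limma adjusted p = 0.138), and Rnf5, another ligase, had 45, 47 and 49 against 50, 56 and 57 (limma adjusted p = 0.263).

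Of 40 other measured chaperones and folding enzymes 0 passed in limma, with 2 at an unadjusted p under 0.05 (19.5% of all tested genes). Creld1 had 14, 14 and 16 against 20, 22 and 20 (limma adjusted p = 0.0556, and 0.0479 without LV replicate 3, 0.0491 with quantile normalization and 0.044 without LV replicate 3 and untreated replicate 2). Pdia5 had 50, 58 and 43 against 39, 41 and 40 (limma adjusted p = 0.248). Of 35 translocation and glycosylation genes 0 passed in limma, over all genes or at an unadjusted p under 0.05. Here 27 of the 35 fold changes were above 0, where 38.3% of all tested genes were, and their median was 0.06. Added up per liver, these genes gave 1524, 1391 and 1168 with LV against 1338, 1265 and 1268 without, each in replicate order. By this sum LV replicates 1 and 2 stood above all untreated livers, but LV replicate 3 stood below all of them. Genes of a list can vary together between livers, so the count of signs is a description and was not tested.

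Chaperones of other compartments were set beside those of the ER. Of 26 measured cytosolic heat shock genes 0 passed in limma, with 4 at an unadjusted p under 0.05 (19.5% of all tested genes). Hspb8, a small heat shock protein, had 126, 97 and 89 against 50, 76 and 63, with all LV values above (limma adjusted p = 0.138). Hspa1b, the inducible Hsp70, had 17, 19 and 12 against 11, 8 and 11 (limma adjusted p = 0.194). Its near-identical copy Hspa1a can share its reads. Of 12 mitochondrial chaperones and proteases Grpel2, a nucleotide exchange factor of mitochondrial Hsp70, fell from 14, 14 and 16 to 8, 8 and 9 (log2 fold change -0.75 ± 0.10, limma adjusted p = 0.0149). Its adjusted p rose to at most 0.0895 when LV replicate 1, LV replicate 2 or untreated replicate 1 was dropped, which ended the call, as did dropping LV replicate 3 with untreated replicate 2 (0.0602).

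**Figure D5:**
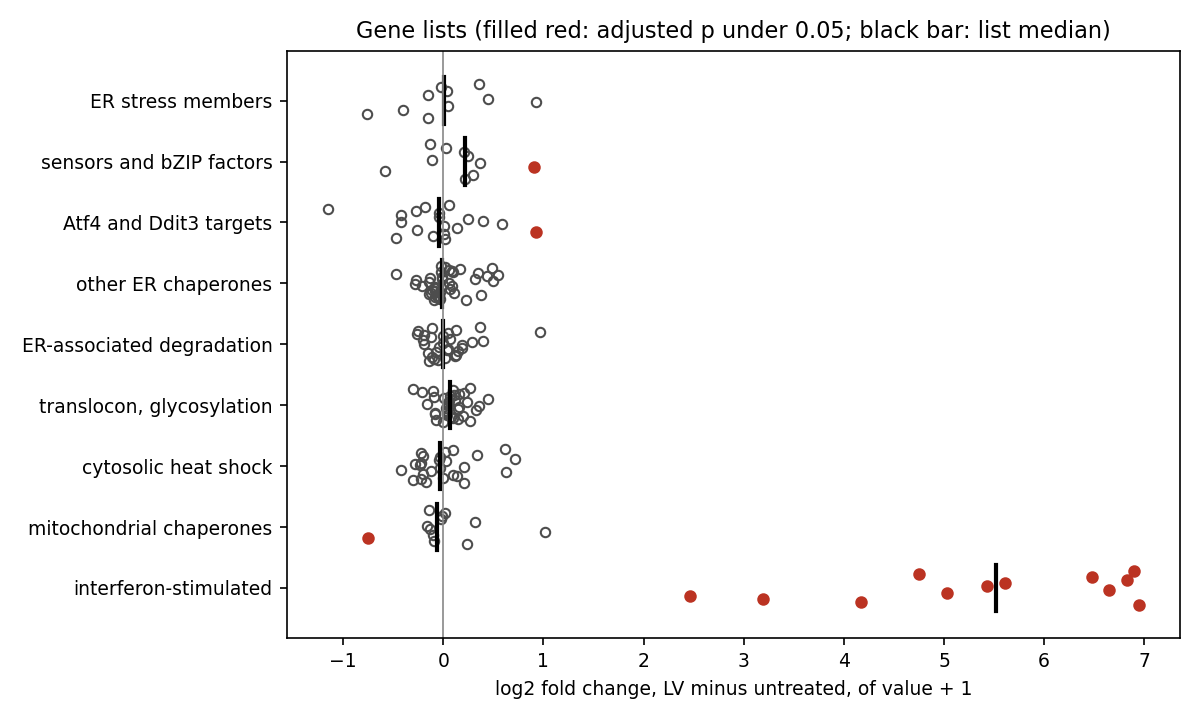
Log2 fold change of value + 1 (horizontal axis) of every tested gene in each list (rows), filled red where the limma adjusted p is under 0.05, with a black bar at the list median. The ER stress genes centre at 0.01 and the sensors and ER-anchored factors at 0.21, while the interferon-stimulated genes centre at 5.52.

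Genes that carry the ERSE or ERSE-II letters in the promoter window were taken as a further set. Of the genes in the table, 18 held 1 of these motifs, 4 of them among the 10 and 7 more in the lists for sensing, folding, degradation and translocation. In limma 0 of the 18 passed, where 4.63% of all tested genes did. Here 10 fold changes were above 0, 1 was 0 and 7 were below, and the median was 0.01. Over all tested genes 38.3% were above 0 and 58% below. Their range ran from -0.76 for Herpud1 to 0.99 for Acnat2. The groups did not overlap for 2 of the 18, and for 19.7% of all tested genes. These 2 were Herpud1, with LV below, and Syvn1, with LV above and a log2 fold change of 0.97. Calr, the lectin chaperone calreticulin, had 450, 415 and 392 against 479, 365 and 441. Dnajc3, which restrains PERK, had 39, 40 and 41 against 39, 40 and 36. Creld2, a secreted stress marker, had 43, 29 and 19 against 26, 20 and 14. The genes named here from the motif search were chosen after their values were seen.

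The genes whose values ran most nearly alongside those of Hspa5, Xbp1 and Atf4 were ranked by Pearson r of log2(value + 1) over the 6 libraries, among 6771 other genes whose mean was 5 or more. For Hspa5 these included Edem1 (r = 0.987), Cltc (0.980), Uhrf1bp1 (0.980) and Cth (0.979). For Xbp1 they were Trak2 (0.996), Slc30a5 (0.980), Cog3 (0.980), Ifitm3 (0.978) and Xkr9 (0.973). Ifitm3, an interferon-stimulated gene, had 829, 834 and 785 in LV against 512, 708 and 582 in untreated livers. Its likeness to Xbp1 in the order of the libraries is what it was ranked by, and no link between them was tested. For Atf4 they were Ywhae (0.984), Adssl1 (0.982), Rexo4 (0.981), Ndufs4 (0.962) and Hnrnpab (0.959). The libraries share treatment and scaling, so the ranking is a description.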

How the data were processed

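No header or label names the unit of the deposited table. Its values were handled as a score, apparently normalized by the authors and rounded to whole numbers: at means of 2 to 5, replicate variance was 0.236 (LV) and 0.218 (untreated) times the mean, less than counting alone would give. The submitters' processing notes name mm9. Aligner, annotation and counting method: not given in the sources used here. Depth is unknown. A gene was tested if 3 or more libraries had a value of 1 or more (8386 of 8390). The model in limma 3.58.1 (R 4.3.3) compared group means of log2(value + 1) with a variance trend on intensity, two-sided, with Benjamini-Hochberg adjustment at 0.05 over all tested genes. The fit was run on simulated data with independent noise for each gene. Variation that genes share within a library was not simulated, so that run does not cover it. Intervals are 95% and unadjusted.

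The members, gene lists and tests were chosen with earlier results of these data known. Named genes were the 10 members, every called gene of a list and up to 4 with the smallest p in each, though some are left out of the text, and 1 gene ranked by likeness is not reported here. Other genes are said to be chosen afterwards. Promoter windows came from RefSeq (GRCm38.p6), and the deposited table has no coordinates. Alternatives left out each library or LV replicate 3 and untreated replicate 2 together, added a replicate block, and changed pseudocount, filter, scaling and variance trend.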

Additional observations from a re-analysis of the deposited data

How the results depend on the processing

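No alternative called any of the 10 ER stress genes: 0 were higher and 0 lower in each of the 14 other fits. Near 0 some fold changes took the other sign. Hsp90b1 had 0.034 with the median of ratios and 0.077 without LV replicate 3 and untreated replicate 2. With single libraries left out, Hsp90b1 ran from -0.15 to 0.097, Pdia4 from -0.084 to 0.19, Atf4 from -0.080 to 0.20 and Sdf2l1 from -0.41 to 0.072. Xbp1 ranged from 0.68 to 1.35 (limma adjusted p 0.0872 to 0.409), Herpud1 from -0.97 to -0.55 (0.0808 to 0.376), Ddit3 from -0.50 to -0.25 (0.186 to 0.361) and Hspa5 from 0.14 to 0.61 (0.297 to 0.755). Of all tested genes 315 were higher and 73 lower. Leaving out single libraries gave 119 to 313 higher and 10 to 116 lower, and for the other stress response genes 0 to 1 higher and 0 to 2 lower. Deviations of same-numbered livers from their group means had correlations of 0.305, -0.484 and -0.353 for numbers 1, 2 and 3. The highest of all pairs, 0.631, joined LV replicate 3 and untreated replicate 2, the libraries apart in male-biased genes. These values cannot decide whether same-numbered livers were handled together. With the replicate block there were 145 higher and 11 lower genes, and 0 higher among the other stress response genes, and the call of Grpel2 was lost (limma adjusted p = 0.0785). The median of ratios gave 408 higher and 68 lower genes, and 3 higher among the other stress response genes. Without LV replicate 3 and untreated replicate 2, 306 genes were higher and 136 lower, and among the other stress response genes 0 were higher and 1 lower. Quantile normalization also gave 1 lower there. The causes were not tested beyond the smaller number of samples. No scaling moved the median of all genes by over 0.1. Rounding to whole numbers limits low genes such as Ddit3 and Dnajb9.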
